A study of Rattus norvegicus with 18 samples.

Results

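The genes of collagens and of the muscle extracellular matrix were examined in 3 muscles of rats with EAMG, the experimental autoimmune form of myasthenia gravis. Members were picked by gene symbol, under a rule drawn up with earlier results of these data known. A gene belonged if it was a collagen chain (such as Col1a1), a laminin chain, or one of 16 other matrix genes, among them fibronectin (Fn1), Sparc, fibrillin (Fbn1), lumican (Lum), decorin (Dcn), periostin (Postn), lysyl oxidase (Lox) and the nidogens. Of 14217 genes with a probe set of their own, 66 met this rule, through 92 of the 31042 probe sets of the array. Each gene is given by its probe set with the highest mean signal. A probe set was tested if its signal reached 400 on at least 1 array, the minimum the study used because fold changes of signals nearer the background are distorted, and 42 of the 66 genes were tested on this basis.

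EAMG was induced in female Lewis rats of 6 to 8 weeks by a single immunization with acetylcholine receptor (AChR) of Torpedo, in complete Freund's adjuvant (40 µg of AChR for each rat) with a further 0.5 mg of non-viable Mycobacterium tuberculosis H37RA. Control rats received the same adjuvant without AChR, so that all groups carry the effect of the adjuvant. After 6 weeks the diaphragm (DIA), which drives breathing, a fast muscle of the lower leg (extensor digitorum longus, EDL) and the rectus muscles of the eye (EOM) were removed. Each of the 6 groups of muscle and treatment had 3 arrays, and each was hybridised to pooled RNA of 3 rats by the labels, or of 4 or 4 to 5 by the methods. An array is thus a pool and not a rat, p-values measure the spread between the arrays of a group, and 3 arrays limit the precision. The 3 muscles may have come from the same rats, so the muscles are not independent of each other.

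Collagens are trimers of chains wound around each other. Type I and III collagens, with type V inside them, form the fibrils that carry tension between muscle fibres, and they are made mostly by fibroblasts. Each muscle fibre is wrapped in a basement membrane, a sheet of type IV collagen and laminins joined by nidogens, which is tied to the fibril layer by collagens VI, XV and XVIII. Small leucine-rich proteoglycans (Dcn, Lum, Bgn and Fmod) coat the fibrils and set their width, elastin (Eln) and Fbn1 form elastic fibres, and Lox crosslinks collagen and elastin. The receptors attacked in myasthenia gravis lie beneath a specialised stretch of this basement membrane.

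Promoters of 4 members are shown because they passed in different directions and muscles. Col1a2 and Col15a1 passed lower in EAMG in DIA and EDL (limma, adjusted p under 0.05), Lamb3 lower in EOM and Lama2 higher in EDL. In all 3 muscles Lamb3 was lower and Lama2 higher on every EAMG array than on every control array. The sequences are those of RefSeq on build GRCr8, upstream of the annotated start, and all 4 lie on the plus strand. Capitals mark a CCAAT box (CCAAT or its complement ATTGG), the letters TATAA (or TTATA), or a GC box (GGGCGG or CCGCCC). The annotated start of Col1a2 falls on an ATG, and for that gene only the first 100 of the 250 bases are given, at chr4:33518307-33518406. The others cover 250 bases each, at chr5:66297296-66297545 for Col15a1, chr13:107362303-107362552 for Lamb3 and chr1:19491896-19492145 for Lama2.
Col1a2: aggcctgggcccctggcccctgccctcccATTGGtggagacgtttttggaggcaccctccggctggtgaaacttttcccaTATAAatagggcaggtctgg
Col15a1: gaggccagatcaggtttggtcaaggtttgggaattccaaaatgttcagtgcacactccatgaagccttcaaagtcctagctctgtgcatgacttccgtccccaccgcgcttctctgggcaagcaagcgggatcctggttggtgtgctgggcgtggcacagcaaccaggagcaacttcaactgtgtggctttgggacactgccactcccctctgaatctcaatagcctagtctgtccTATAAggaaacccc
Lamb3: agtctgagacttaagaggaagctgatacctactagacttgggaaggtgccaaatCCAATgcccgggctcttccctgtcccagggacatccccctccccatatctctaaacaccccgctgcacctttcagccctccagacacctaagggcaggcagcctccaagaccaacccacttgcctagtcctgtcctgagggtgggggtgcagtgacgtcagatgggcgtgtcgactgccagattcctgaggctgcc
Lama2: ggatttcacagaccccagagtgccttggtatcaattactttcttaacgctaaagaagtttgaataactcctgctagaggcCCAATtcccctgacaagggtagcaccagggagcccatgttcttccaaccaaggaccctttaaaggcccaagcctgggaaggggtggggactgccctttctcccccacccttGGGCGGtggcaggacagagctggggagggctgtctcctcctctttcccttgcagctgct
Of the 22 members called in any comparison of EAMG with control, 17 had a promoter in the table. Among these 17, 4 held a CCAAT box, 2 held TATAA and 8 held a GC box within 250 bases. Over all 33469 promoters of the same length the shares were 34.0%, 24.0% and 30.5%. A match of letters is a description and not a binding site, and Col1a1 and Col3a1 had no entry.

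The signal is the linear output of GCOS 2.0, scaled so that every array had a mean of 500.2 once 2% of probe sets at each end were set aside. The change in EAMG is the difference of mean log2 signals, tested by limma in a single model of the 18 arrays, and a gene passed at an adjusted p under 0.05 over the 12238 probe sets tested. SE denotes limma's standard error. Poly-A RNA spiked into the samples gave a mean signal of 11604 to 28191, except for 885 on DIA EAMG 2 and 608 on EOM EAMG 2. The 3' to 5' ratio of GAPDH, which rises as RNA is broken down, was 2.66 on DIA EAMG 3 and at most 1.33 on the other 17. Array EDL control 3 was the lowest of the EDL controls in 31 of the 42 tested members. Myh13, the myosin of extraocular muscle, stood log2 6.41 above EDL in the EOM controls (SE 0.52, adjusted p = 3.29e-07).

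In EAMG the matrix genes were mostly lower in the limb muscle and the diaphragm, with the fibrillar collagens lowest. In EDL 10 of the 42 tested members passed lower and 2 higher, where 3.22% of all probe sets tested passed lower and 3.37% higher. Those lower in EDL were Col1a1, Col1a2, Col3a1, Col5a1, Col5a2, Col15a1, Col18a1, Col6a6, Sparc and Lum, and those higher were Lama2 and Thbs4. In DIA 3 members passed lower (Col1a1, Col1a2 and Col15a1) and 0 higher, against 1.15% and 1.53% of all probe sets. In EOM 2 passed lower (Col24a1 and Lamb3) and 1 higher (Col25a1), against 0.531% and 0.964%. Col25a1 met the signal minimum on EOM EAMG arrays only, the group in which it was high. Col18a1 met it on 1 EOM EAMG array only. For the tested members the median log2 change was -0.36 (DIA), -0.48 (EDL) and -0.13 (EOM), and over all probe sets tested it was 0.01, -0.00 and 0.00. In bulk muscle a lower signal can mean fewer cells that make the transcript or less transcript per cell, and these cannot be told apart.

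The 3 EAMG arrays lay below all 3 control arrays for 21 tested members in DIA, 11 in EDL and 7 in EOM. Over all probe sets tested this was so for 11.1%, 12.4% and 11.9%. They lay above all controls for 2, 3 and 4 members, where 13.3%, 12.6% and 12.5% of all probe sets did so. Lamb3 was lower on every EAMG array than on every control array in each of the 3 muscles, and Lama2 was higher in each. The sign of the log2 change was negative in all 3 muscles for 22 members and positive in all 3 for 7. No share over all probe sets was computed for these patterns across muscles, and the muscles may share rats.

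**Figure D1:**
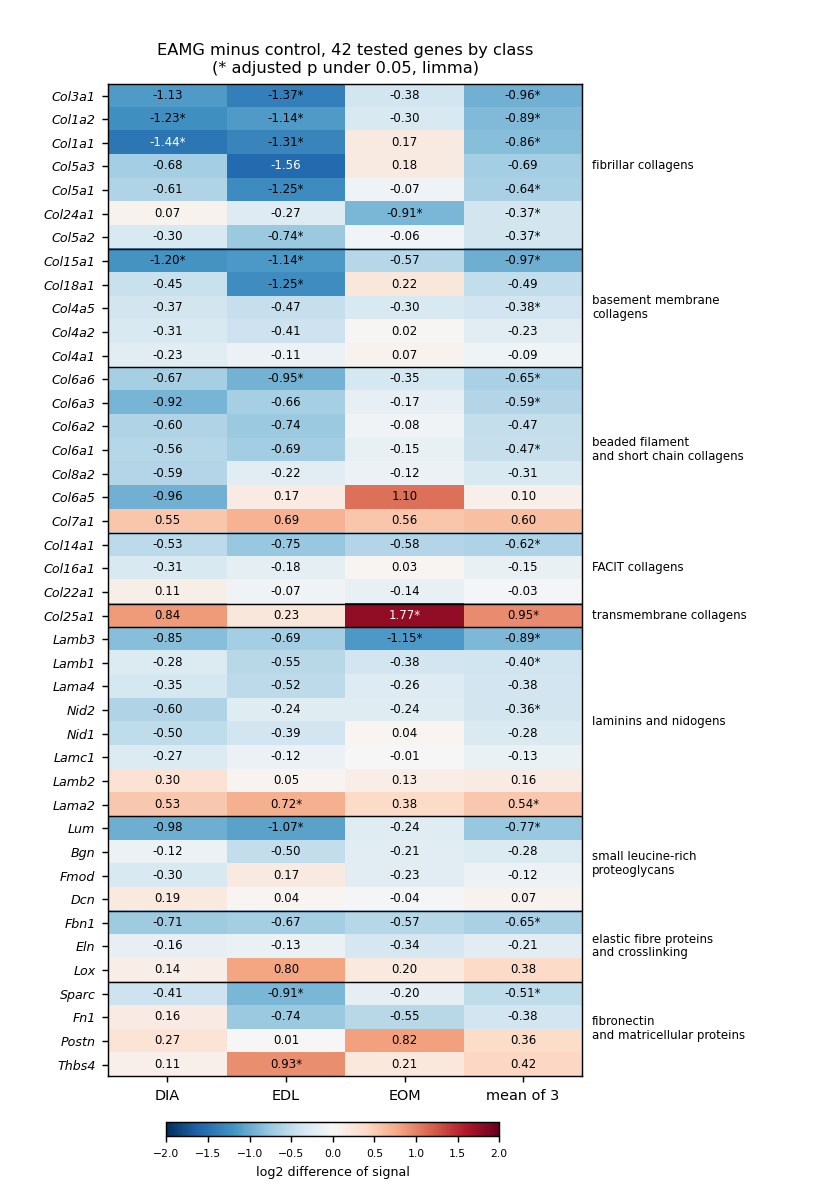
Log2 difference of signal between EAMG and control arrays (3 against 3) for the 42 tested genes, in rows by class, in DIA, EDL and EOM and as the mean of the 3, with an asterisk where limma's adjusted p was under 0.05. The fibrillar collagens Col3a1, Col1a2 and Col1a1 lie between -1.44 and -1.13 in DIA and EDL and between -0.38 and 0.17 in EOM, while Col25a1 and Lama2 lie above 0 in every column.

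Type I collagen, the main fibril of muscle connective tissue, was lower in EAMG in DIA and EDL, with Col1a1 2.71 and 2.48 times and Col1a2 2.35 and 2.20 times lower. The signal of Col1a1, its alpha 1 chain, was 5188, 6157 and 4979 on the DIA control arrays and 3078, 1991 and 1305 on the EAMG arrays. In EDL it was 6278, 5685 and 4366 in control and 3324, 1794 and 1704 in EAMG. Every EAMG array lay below every control array in both muscles, and array 1 was the highest of the EAMG arrays in each. The log2 change was -1.44 in DIA (SE 0.31, adjusted p = 0.0258) and -1.31 in EDL (SE 0.31, adjusted p = 0.0249). In EOM the signal was 5864, 5672 and 5909 in control and 4566, 6481 and 9522 in EAMG, so the EAMG arrays lay on both sides of the closely grouped controls and the change was 0.17 (adjusted p = 0.866).

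Col1a2, the alpha 2 chain, followed the same course in DIA and EDL. Its signal in DIA was 4694, 5148 and 5166 in control and 3303, 1699 and 1722 in EAMG, and in EDL it was 4380, 4212 and 3883 in control and 2644, 1338 and 1895 in EAMG. The groups did not overlap in either muscle. The log2 change was -1.23 in DIA (SE 0.26, adjusted p = 0.0252), -1.14 in EDL (adjusted p = 0.0226) and -0.30 in EOM (adjusted p = 0.690). Col3a1, which forms finer fibrils with type I, had 8917, 11360 and 4954 in EDL control and 4875, 2467 and 2423 in EDL EAMG arrays. EDL control 3 stood only just above EDL EAMG 1, and the fall of log2 1.37 passed (SE 0.30, adjusted p = 0.0180). In DIA the same gene had 14186 to 14502 in control and 5561 to 9062 in EAMG, groups that were well apart, with a log2 change of -1.13 that did not pass (adjusted p = 0.0580).

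Type V collagen, which lies inside the type I fibril and starts its assembly, passed in EDL. Col5a1 had 615, 603 and 457 in EDL control and 432, 168 and 172 in EAMG arrays (log2 change -1.25, SE 0.29, adjusted p = 0.0213). All EAMG arrays lay below all controls, with EDL EAMG 1 close to EDL control 3. Col5a2 had a log2 change of -0.74 in EDL (adjusted p = 0.0262). In DIA the changes were -0.61 and -0.30, and in EOM -0.07 and -0.06, and none of these 4 passed. A second, dimmer probe set of Col5a1 had a change of -1.65 in EDL that did not pass (adjusted p = 0.140), whereas second probe sets of Col1a1, Col1a2 and Col15a1 passed in DIA and EDL and that of Col5a2 in EDL. Col5a3 did not pass in any muscle (-0.68, -1.56 and 0.18 in DIA, EDL and EOM, SE 0.86), with signals from 12.7 to 668. Of the 7 tested fibrillar members, 2 passed in DIA, 5 in EDL and 1 in EOM, all lower, and their median log2 change was -0.68, -1.25 and -0.07.

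**Figure D2:**
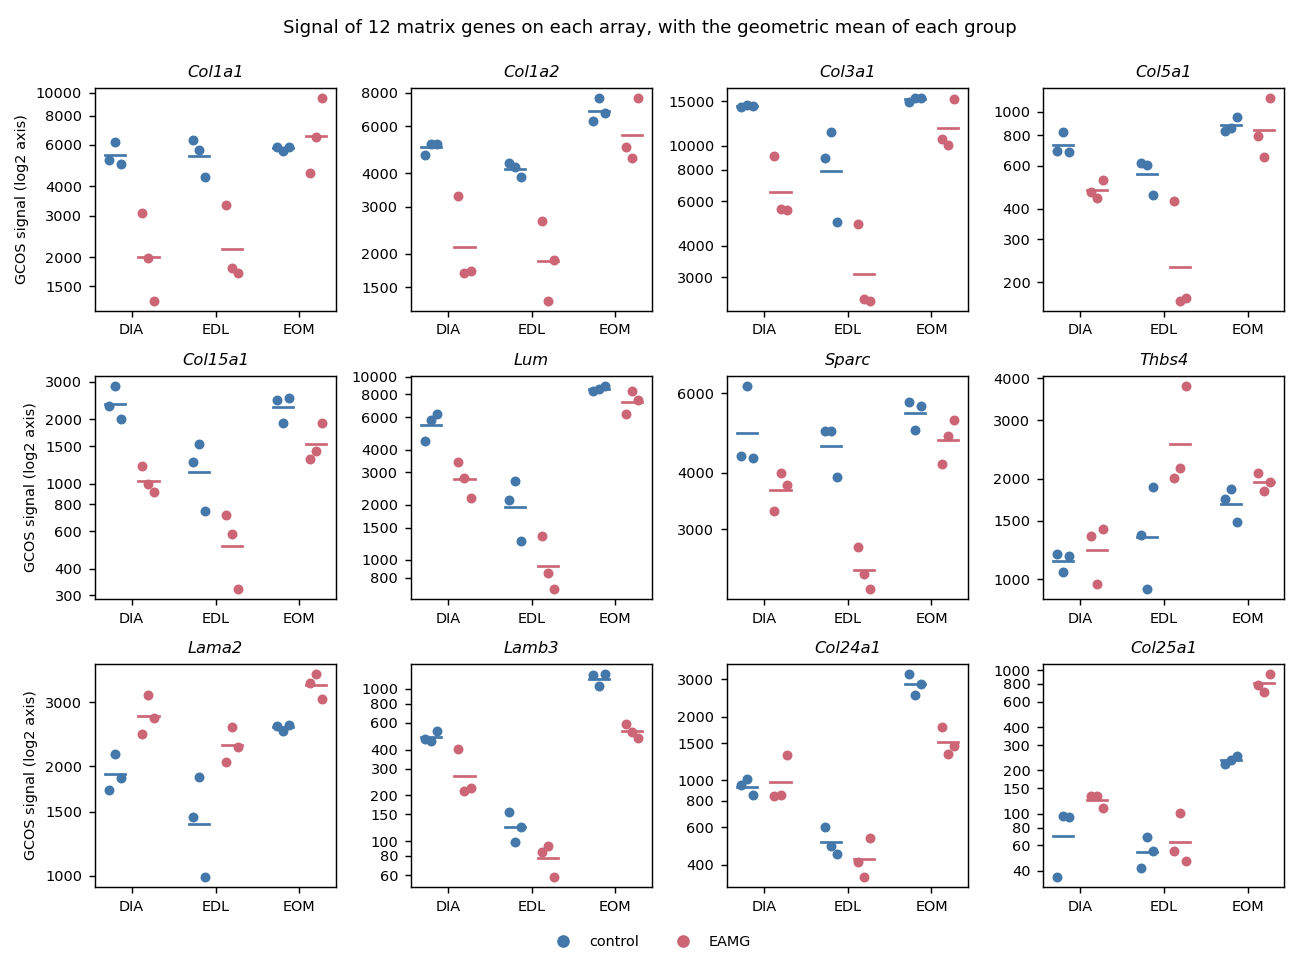
Signal of 12 genes on each array (log2 axis, 1 point per array, 3 per group, control in blue and EAMG in red), with a line at the geometric mean of each group. The EAMG arrays of Col1a1, Col1a2 and Col15a1 lie below the control arrays in DIA and EDL, while those of Col25a1 lie at 707 to 937 in EOM above controls of 222 to 251.

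Calls in single muscles rested on few arrays and on the set of probe sets tested. Tested without the signal minimum, 0 members passed in DIA, 1 in EDL (Sparc) and 0 in EOM. A model of only the 6 arrays of a muscle left 0 in DIA and 0 in EDL. In EOM that model kept Col25a1, Lamb3 and Col24a1 (limma, adjusted p = 0.00733, 0.0144 and 0.0404). With DIA EAMG 2 and EOM EAMG 2, whose poly-A signal was low, left out, 0 passed in DIA. The count of 3 members in DIA was 0 without any one of DIA control 1, 2 or 3, DIA EAMG 2 or DIA EAMG 3, and 6 without DIA EAMG 1, 6 without EDL control 3 and 7 without EDL EAMG 1. The count of 12 in EDL was 1 without EDL control 1, EDL EAMG 2 or EDL EAMG 3, 2 without EDL control 2, 17 without EDL control 3 and 16 without EDL EAMG 1. Sparc was the 1 member that passed in EDL in all 18 of these fits (highest adjusted p = 0.0323).

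Among the collagens of the basement membrane zone, Col15a1, which links the membrane to the fibrils, was lower in both DIA and EDL. Its signal was 2317, 2864 and 1999 in DIA control against 1214, 998 and 910 in DIA EAMG, and 1268, 1527 and 746 in EDL control against 716, 583 and 322 in EDL EAMG. The groups did not overlap in either muscle, although EDL control 3 and EDL EAMG 1 were close. The log2 change was -1.20 in DIA (SE 0.29, adjusted p = 0.0408) and -1.14 in EDL (adjusted p = 0.0320), with -0.57 in EOM (adjusted p = 0.426). Col18a1, the source of endostatin, fell in EDL by log2 1.25 (adjusted p = 0.0227), from 241, 297 and 129 to 126, 88.6 and 62.2. With 100 added to each signal the change was -0.72. These signals were all below 400, and the gene was tested because of 1 EOM EAMG array at 465. The chains of type IV collagen, the network of the membrane itself, did not pass in any muscle. Col4a1 had log2 changes of -0.23, -0.11 and 0.07 in DIA, EDL and EOM, Col4a2 of -0.31, -0.41 and 0.02, and Col4a5 of -0.37, -0.47 and -0.30.

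Type VI collagen, which forms beaded filaments next to the basement membrane and whose loss causes muscular dystrophy, had negative log2 changes in 4 of its 5 tested chains in every muscle, of which Col6a6 passed in EDL. Col6a1 had log2 changes of -0.56 in DIA and -0.69 in EDL (adjusted p = 0.172 and 0.0744), with all EAMG arrays below all controls in both muscles. Col6a2 had -0.60 and -0.74, Col6a3 -0.92 and -0.66, and none of these passed. For Col6a6 the EDL change was -0.95 (SE 0.24, adjusted p = 0.0310), from 335, 320 and 256 to 255, 119 and 126. In EOM the 4 chains had changes between -0.35 and -0.08. Col6a5 was the exception, with -0.96 in DIA and 1.10 in EOM, where its EAMG arrays had 346, 413 and 440 against 231, 169 and 165, but neither change passed (adjusted p = 0.282 and 0.336). Col7a1, of the anchoring fibrils of skin, and Col8a2 did not pass in any muscle, nor did the 3 tested FACIT collagens, which sit on the fibril surface (Col14a1, Col16a1 and Col22a1).

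The laminins did not move as a group. Lama2, the alpha chain of the main laminin around adult muscle fibres, was the 1 tested member whose EAMG arrays were higher than every control array in all 3 muscles. In EDL it had 1449, 1871 and 992 in control and 2057, 2565 and 2255 in EAMG, a log2 change of 0.72 that passed (SE 0.18, adjusted p = 0.0317). In DIA it had 1723, 2165 and 1856 against 2457, 3145 and 2716, and in EOM 2578, 2508 and 2606 against 3387, 3589 and 3070. The arrays were apart in each muscle, and the changes of 0.53 and 0.38 did not pass (adjusted p = 0.123 and 0.387). Its partner chains had changes of -0.27, -0.12 and -0.01 for Lamc1, -0.28, -0.55 and -0.38 for Lamb1, and 0.30, 0.05 and 0.13 for Lamb2, the beta chain of the membrane at the neuromuscular junction, in DIA, EDL and EOM, none of which passed. Nid1 and Nid2, which join laminin to type IV collagen, had changes of -0.50 and -0.60 in DIA with the arrays apart, and did not pass (adjusted p = 0.124 and 0.0785).

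Lamb3, a chain of the laminin of epithelial basement membranes, fell in EOM from 1227, 1042 and 1249 to 592, 519 and 477. The groups were far apart, and the log2 change was -1.15 (SE 0.23, adjusted p = 0.0217). In DIA the signal was 468, 455 and 528 in control and 406, 213 and 223 in EAMG (-0.85, adjusted p = 0.0640), and in EDL it was 155, 99.0 and 124 against 85.0, 92.6 and 58.3 (-0.69, adjusted p = 0.0917). Col24a1, a fibrillar chain, had 3174, 2540 and 2844 in EOM control and 1785, 1333 and 1449 in EOM EAMG, again with no overlap, a log2 change of -0.91 (SE 0.19, adjusted p = 0.0273). Its changes in DIA and EDL were 0.07 and -0.27.

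Col25a1, a collagen that spans the membrane and is needed for motor axons to enter developing muscle, was the 1 collagen that passed higher in a muscle. In EOM it had 222, 236 and 251 in control and 792, 707 and 937 in EAMG arrays, a log2 change of 1.77 (SE 0.33, adjusted p = 0.0141). The control signals were below 400 and the groups were widely apart. In DIA it had 36.2, 96.6 and 95.3 against 132, 133 and 110 (0.84, adjusted p = 0.174) and in EDL 41.9, 68.7 and 55.2 against 55.0, 100.3 and 46.7 (0.23), all far below 400. It was tested because of the EOM EAMG arrays alone. Without the signal minimum its change in EOM did not pass (limma, adjusted p = 0.0824). Col13a1, another transmembrane collagen and one of the neuromuscular junction, had 77.7 as its highest signal and was not tested.

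The 3 calls in EOM were also fragile, with 0 left without EOM control 1, 2 or 3 or EOM EAMG 3, 1 without EOM EAMG 1 and 1 without EOM EAMG 2. All 3 were kept in the model of only the 6 EOM arrays. With DIA EAMG 2 and EOM EAMG 2 left out, 1 remained, Col25a1. Markers listed for other orbital tissue differed between the same arrays, although the lists were not particular to the orbit. Summed over 5 markers of orbital glands, the signal was 967 to 1618 in EOM control and 4021 to 6133 in EOM EAMG, and 1 of the 2 tested markers (Thrsp) passed higher. Over 5 markers of melanocytes it was 160 to 247 and 311 to 1005 (Dct passed), and over 11 of surface epithelium 965 to 2293 and 1211 to 5002, with 0 of 7 passed. In DIA control the sums of the gland, melanocyte and epithelium lists were 1323 to 7550, 150 to 272 and 1231 to 2370. None of these markers had a signal of 0. Their part in the EOM results was not tested.

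The proteoglycans that coat collagen fibrils differed from one another. Lum fell in EDL by log2 1.07 (SE 0.27, adjusted p = 0.0315), from 2123, 2705 and 1273 to 1344, 846 and 694, where EDL control 3 lay below EDL EAMG 1. In DIA it had 4429, 5770 and 6277 in control and 3420, 2788 and 2176 in EAMG, groups that did not overlap, with a change of -0.98 (adjusted p = 0.0640). Dcn, the most widely studied of the family and a binder of TGF-beta, had 10701, 10764 and 14729 against 13320, 14855 and 12671 in DIA and 9396, 9786 and 6329 against 8709, 7883 and 9265 in EDL. The arrays of Dcn overlapped in every muscle, and the log2 changes were 0.19, 0.04 and -0.04 in DIA, EDL and EOM (SE 0.18). Bgn (-0.12, -0.50 and -0.21) and Fmod (-0.30, 0.17 and -0.23) did not pass either.

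Among the elastic fibre genes, Fbn1 had changes of -0.71, -0.67 and -0.57 in DIA, EDL and EOM and did not pass, while a second probe set of it passed in EDL (-1.14, SE 0.30, adjusted p = 0.0355). Eln had -0.16, -0.13 and -0.34. Lox, the crosslinking enzyme, had 257, 368 and 306 in EDL control and 476, 692 and 460 in EDL EAMG, with all EAMG arrays above all controls and a change of 0.80 that did not pass (adjusted p = 0.0637).

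The matricellular proteins, which bind cells and matrix without forming fibres, moved in both directions. Sparc, which binds collagen during its secretion, had 4959, 4954 and 3919 in EDL control and 2736, 2392 and 2214 in EDL EAMG, a clear separation, and fell by log2 0.91 (SE 0.16, adjusted p = 0.00526). Its change was -0.41 in DIA and -0.20 in EOM, and its second probe set passed in DIA at -0.72 and in EDL at -0.73. Thbs4, found at the junction of muscle and tendon, rose in EDL by log2 0.93 (SE 0.25, adjusted p = 0.0402), from 1360, 938 and 1891 to 2013, 2161 and 3796, with EDL EAMG 3 far above the others. This call was lost in 10 of the 18 fits without 1 array, up to an adjusted p of 0.167 without EDL EAMG 3. Fn1, which links collagen to cell receptors, had changes of 0.16, -0.74 and -0.55, and Postn, raised in repairing matrix, 0.27, 0.01 and 0.82. None of these 6 passed, although in EOM all EAMG arrays lay below all controls for Fn1 and above all controls for Postn, at 2642, 3158 and 4808 against 1688, 1959 and 2226.

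Averaged over the 3 muscles, 18 tested members passed lower and 2 higher, beside 9.93% and 10.5% of all probe sets tested. The lower members were Lamb3, Col15a1, Col3a1, Col1a2, Col1a1, Lum, Col6a6, Fbn1, Col5a1, Col14a1, Col6a3, Sparc, Col6a1, Lamb1, Col4a5, Col24a1, Col5a2 and Nid2, and the higher were Col25a1 and Lama2. Of these, Col25a1 met the signal minimum on EOM EAMG arrays only. The log2 mean change was -0.97 for Col15a1 (SE 0.17, adjusted p = 0.00135), -0.96 for Col3a1, -0.89 for Col1a2, -0.86 for Col1a1, -0.89 for Lamb3 (SE 0.14, adjusted p = 5.44e-04) and 0.54 for Lama2 (SE 0.10, adjusted p = 0.00274). The count of 20 lay between 17 and 27 in the fits without 1 array and was 11 without the signal minimum. The calls of Col14a1, Lamb1 and Col24a1 were lost in 12, 10 and 9 of these 18 fits, and the other 17 in none. With DIA EAMG 2 and EOM EAMG 2 both left out these 3 calls and those of Col5a1, Col5a2 and Nid2 were lost (adjusted p of 0.0564, 0.0667 and 0.0884 for the last 3). Among fibrillar collagens 6 of 7 passed in this average.

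Whether the muscles differed in their response was tested directly, and 0 members passed in any of the 3 comparisons (limma, adjusted p under 0.05), where 0.0163% of probe sets passed for EDL against DIA, 0.0163% for EOM against DIA and 0.106% for EOM against EDL. At an unadjusted p under 0.05 there were 3, 6 and 11 of 42, beside 650, 795 and 1240 of all 12238 probe sets tested. The change of Col1a1 was higher in EOM than in DIA by log2 1.61 (95% confidence interval 0.67 to 2.56, adjusted p = 0.460) and higher in EOM than in EDL by 1.49 (0.54 to 2.43, adjusted p = 0.252). For Col18a1 the difference between EOM and EDL was 1.47 (0.59 to 2.34, adjusted p = 0.216). Col18a1 met the signal minimum on 1 EOM EAMG array only, in the group on the high side of this difference. With 3 arrays per group these intervals were wide. Without EDL EAMG 1, Col5a1 passed for EOM against EDL at a difference of 1.64 (adjusted p = 0.0148).

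Fibroblasts make most fibrillar collagen, and 10 of their markers outside the gene set were measured. Of these 7 were tested, among them Pdgfra, Pi16, Dpt and Mfap5. Dpt and Mfap5 also belong to the list of other matrix proteins below, so the markers are not separate from matrix genes. None of the 7 markers passed in EAMG in any muscle (0 of 7 each). The 7 markers had median log2 changes of -0.15 (DIA), -0.14 (EDL) and 0.02 (EOM). Their summed signal was 28394 to 33733 in DIA control and 29981 to 30507 in DIA EAMG, and 39304 to 42854 and 39869 to 46378 in EOM. In EDL it was 19832, 24302 and 11745 in control and 20469, 20178 and 16017 in EAMG, so that EDL control 3 had the lowest sum of all arrays. On the EDL EAMG arrays 1, 2 and 3 the median deviation of the 7 fibrillar members from the control mean was -0.45, -1.58 and -1.66, and that of the fibroblast markers -0.03, 0.04 and -0.51. In DIA the same medians were -0.60, -0.71 and -1.16 for the fibrillar members and -0.09, -0.11 and -0.23 for the markers. Of the macrophage markers 0 of 9 passed in each muscle, and their summed signal was 7376 to 10853 in DIA control and 11438 to 15572 in DIA EAMG. Of 8 endothelial markers 1 (Emcn) passed lower in EDL and 7 had a negative change there, with a median of -0.37 and a summed signal of 5345 to 7181 in control and 4827 to 5954 in EAMG. In EOM 0 of the 8 passed and the endothelial sums did not overlap, at 8452 to 9534 in control and 7439 to 8231 in EAMG. Of 13 skeletal muscle markers 0 passed in DIA, with a median log2 change of -0.12, and their sums were 384651 to 403635 in control and 343418 to 383856 in EAMG. None of these markers had a signal of 0. The part of these cells in the results was not tested.

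**Figure D3:**
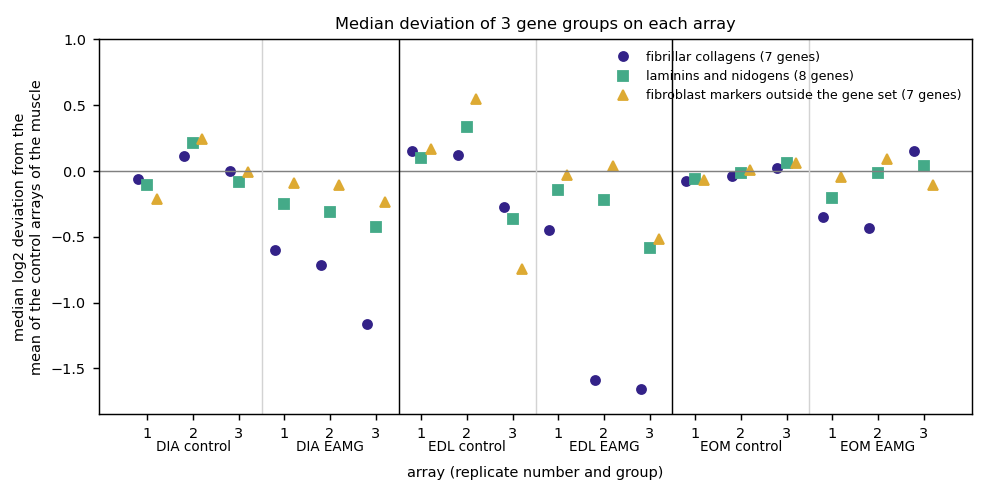
Median log2 deviation from the control mean of the same muscle for 7 fibrillar collagens, 8 laminins and nidogens and 7 fibroblast markers outside the gene set, 1 point per group of genes on each of the 18 arrays (replicate number below, groups separated by lines). The fibrillar collagens lie at -0.45 to -1.66 on the DIA and EDL EAMG arrays, and the fibroblast markers at -0.51 to 0.04.

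Genes that make and process collagen passed lower in 2 instances. Serpinh1, the chaperone that folds procollagen, had 2616, 2902 and 3381 in DIA control and 1985, 1438 and 1276 in DIA EAMG, and fell by log2 0.94 (SE 0.18, adjusted p = 0.0144). P4ha1, a subunit of the enzyme that hydroxylates its prolines, fell in EDL by 0.61 (SE 0.13, adjusted p = 0.0165), from 1303, 1310 and 1398 to 1057, 722 and 878. The arrays of both were fully apart in these muscles. The EAMG arrays also lay below all controls for P4ha1 in DIA and EOM and for Serpinh1 in EDL, and overlapped for Serpinh1 in EOM. Serpinh1 and P4ha1 were the 1 call in DIA and the 1 in EDL among the 15 tested genes of this list, with 0 in EOM. Over all probe sets tested 1.15%, 3.22% and 0.531% passed lower. The list's median log2 change was -0.15, -0.15 and -0.00. Averaged over the muscles Pcolce, which speeds the removal of the procollagen end piece, also passed at -0.52. Its EAMG arrays lay below all controls in DIA and EDL and overlapped in EOM.

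Of 20 tested matrix receptors 3 passed higher and 0 lower in EDL, beside 3.37% and 3.22% of all probe sets tested. Sdc4, a heparan sulfate proteoglycan of cell adhesions, rose by log2 1.06 (SE 0.24, adjusted p = 0.0213), from 708, 1102 and 1313 to 1576, 3028 and 1932, and the integrin chains Itgb5 and Itgb6 by 0.74 and 0.45. None passed in DIA or EOM. In both of these muscles the EAMG arrays of Sdc4 lay above all controls. Those of Itgb5 did so in EOM only, and those of Itgb6 overlapped in both. The median of the list was 0.00, -0.09 and 0.00 in DIA, EDL and EOM. Of 29 other tested matrix proteins, Mfap4, a protein of elastic microfibrils, fell in DIA by 1.30 (SE 0.31, adjusted p = 0.0382) and in EDL by 1.15 (adjusted p = 0.0408), and had a change of -1.07 in EOM that did not pass (adjusted p = 0.116). Its signal in DIA was 2166, 2179 and 2365 in control and 1562, 606 and 783 in EAMG, and in EOM 1621, 1540 and 2072 against 630, 719 and 1242, with no overlap in either muscle. Pxdn, which crosslinks type IV collagen, fell in EDL by 0.89. Its EAMG arrays lay below all control arrays in each of DIA, EDL and EOM. Spp1 (osteopontin), an inflammatory matrix protein, had 31.2, 79.7 and 92.5 in DIA control and 221, 219 and 248 in DIA EAMG, and 234, 183 and 152 in EOM control and 553, 514 and 674 in EOM EAMG. In EDL it had 18.4, 112 and 10.3 against 91.0, 179 and 144. The groups were apart in DIA and EOM and overlapped in EDL, and only in EOM EAMG did the signal reach 400. Spp1 passed higher in EDL (adjusted p = 0.0432) and not in DIA or EOM (adjusted p = 0.111 and 0.255), and it passed in the average of the muscles (adjusted p = 0.00219). No fold is given for it because the EDL controls were so low. Omd had EAMG arrays above all control arrays in each muscle, with 555, 577 and 683 in control against 1063, 986 and 1098 in DIA. Over the average of the muscles 5 of these 29 passed lower and 2 higher, beside 9.93% and 10.5% of all probe sets tested.

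The control muscles themselves differed in matrix expression, with EDL lowest for most members. Of the 42 tested members 26 were higher and 3 lower in EOM than in EDL, 8 higher and 4 lower in EOM than in DIA, and 19 higher and 1 lower in DIA than in EDL. Over all probe sets tested the shares were 23.1% and 18.3% (41.4% in all), 10.6% and 10.7% (21.3%), and 14.1% and 10.8% (24.8%). Without EDL control 3 the count against EOM was 19 in place of 29, and that against DIA was 12 in place of 20. It was also 12 without EDL control 1 or DIA control 2. The 7 tested fibroblast markers all passed higher in EOM than in EDL, and 3 of them in DIA, with the sums given above, and their part in these differences was not tested.

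Between EOM and EDL Lamb3 had the largest log2 difference, with 155, 99.0 and 124 in EDL, 468, 455 and 528 in DIA and 1227, 1042 and 1249 in EOM controls. The 3 muscles did not overlap, and EOM was higher than EDL by log2 3.24 (SE 0.23, adjusted p = 1.27e-07) and higher than DIA by 1.28 (adjusted p = 0.00108). Col24a1 lay in the same order, at 603, 491 and 449 in EDL, 953, 1010 and 850 in DIA and 3174, 2540 and 2844 in EOM. Its difference between EOM and EDL was 2.48 (SE 0.19, adjusted p = 2.40e-07). Lum, Col4a5 and Dcn had the same order, with EOM above EDL by 2.15, 1.86 and 1.35. Each step of it passed for Lamb3, Col24a1 and Col4a5, whereas for Lum the step from DIA to EOM did not (0.67, adjusted p = 0.0977). The step of Dcn from EDL to DIA (0.51, adjusted p = 0.0446) was lost in 10 of 18 fits without 1 array, up to 0.188 without EDL control 3, and had an adjusted p of 0.0509 with the replicate number as a block and 0.144 without the signal minimum.

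Some members stood apart in EOM alone. Postn had 1688, 1959 and 2226 in EOM controls, 439 to 720 in DIA and 459 to 709 in EDL, above DIA by log2 1.79 (adjusted p = 7.46e-05) and above EDL by 1.72 (adjusted p = 5.49e-05). Col25a1 and Fn1 were also higher in EOM than in both, all of which passed, with differences of 0.85 from DIA and 0.94 from EDL for Fn1, while the difference between DIA and EDL did not pass for any of these 3. The DIA and EDL control signals of Col25a1, 36.2 to 96.6, were far below 400, and the size of its difference depended on them, at 1.77 and 2.12 as measured and 0.95 and 1.12 with 100 added to each signal. The call of Fn1 against DIA was lost in 2 of 18 fits, up to 0.0754 without DIA control 1. Col14a1, a FACIT collagen of the fibril surface, was highest in DIA, at 3299, 2980 and 5198 against 1573, 1335 and 1597 in EOM and 1084, 1038 and 548 in EDL. It was lower in EOM than in DIA (log2 difference -1.31, adjusted p = 0.0127, and 0.0653 without DIA control 3) and higher in DIA than in EDL by 2.12 (adjusted p = 5.33e-04). Col6a5, Eln and Nid2 passed higher in DIA and in EOM than in EDL. Eln had 184, 277 and 308 in EDL and 562, 606 and 674 in DIA controls. Nid2 had 536, 683 and 515 in EDL and 1295, 1552 and 1133 in DIA controls. Col6a5 had 19.7, 47.2 and 62.6 in EDL, 171, 207 and 106 in DIA and 231, 169 and 165 in EOM controls. These signals of Col6a5 were far below 400, and it met the minimum on EOM EAMG arrays only.

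A few members were lowest in EOM. Col22a1, a collagen of the junction between muscle and tendon, had 519, 464 and 470 in EDL, 262, 334 and 276 in DIA and 195, 171 and 125 in EOM controls, a difference of log2 -1.59 between EOM and EDL (SE 0.20, adjusted p = 2.30e-05). Each of the 3 steps passed for this gene, although that between DIA and EDL was lost in 2 of 18 fits, up to 0.0587 without DIA control 1. Col7a1 had 495, 284 and 372 in EDL and 73.7, 37.1 and 96.6 in EOM, where signals far below 400 set the size of the difference (-2.54 as measured, adjusted p = 1.07e-04, and -1.51 with 100 added to each signal). Fmod, a proteoglycan abundant in tendon, was lower in EOM than in EDL and in DIA (both -0.72), with overlapping arrays against EDL. Its call against DIA was lost in 10 of 18 fits, up to 0.208 without EOM control 3, and had an adjusted p of 0.0577 with the replicate number as a block. That against EDL was lost in 3, up to 0.141 without EOM control 3. Of the 2 tested tendon markers outside the gene set, Scx passed lower in EOM than in EDL, with a log2 difference of -0.81, and Tnmd did not (-0.05). Col1a1, by contrast, was nearly level in the 3 control muscles, with differences of 0.11, 0.10 and 0.01 (SE 0.31), and Sparc with 0.25, 0.15 and 0.09 (SE 0.16), although neither shows that the muscles were equal.

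**Figure D4:**
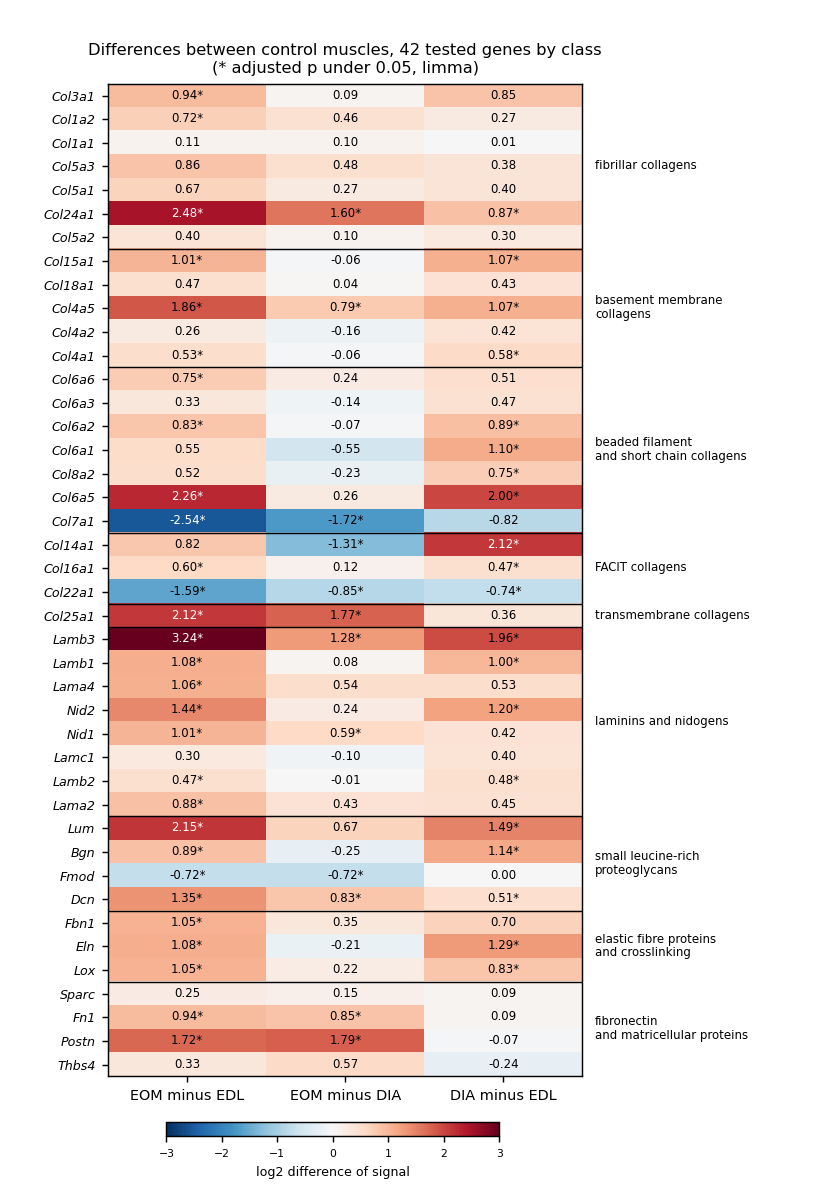
Log2 difference of signal between the control arrays of 2 muscles (3 against 3) for the 42 tested genes by class, with an asterisk where limma's adjusted p was under 0.05. Most cells of the columns against EDL lie above 0, with Lamb3 at 3.24 for EOM minus EDL, while Col7a1, Col22a1 and Fmod lie below 0 in EOM against both other muscles.

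The 24 members that did not reach the minimum included tenascin C (Tnc) and Thbs2, which are raised in repairing tissue, the cartilage collagens Col2a1, Col9a1, Col9a2, Col9a3, Col11a1 and Col11a2, and the laminin chains Lama1, Lama3, Lama5 and Lamc3. Lama5 had the highest signal among these 24, at 354. Tnc lay between 55.4 and 225 on all arrays, and Col12a1 between 133 and 315. Of the 42 tested, 22 were at or above 400 on all 18 arrays, and Col18a1, Col25a1 and Col6a5 reached it in EOM EAMG arrays only. Thbs1 was not analysed here.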

How the data were processed

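RNA of 3 muscles from EAMG and control rats was hybridised to 18 Affymetrix rat arrays. The deposited values are linear intensities that the authors computed and scaled with GCOS 2.0. A probe-to-gene table gave 1 symbol to 20826 of 31042 probe sets, several to 436 and none to 9780, and only those with 1 were named. Signals were taken to log2 without a pseudocount. Probe sets at 400 or more on at least 1 array (12238) were tested with limma 3.58.1 in R 4.3.3 (lmFit and eBayes, 1 mean per group, all 18 arrays), with Benjamini-Hochberg adjustment. The scripts were tested on simulated data. Scaling each array to the same mean means that changes are relative to that mean.

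The members and the lists of related genes and markers were chosen with earlier results of these data known. The text names the members that passed (at most 12 per comparison with EAMG, the 3 largest where fewer than 3 passed), the 6 largest that passed between control muscles, and 24 genes listed by name. Alternatives were no minimum or a minimum on 3 arrays, 100 added to each signal, quantile normalization, the mean of a gene's probe sets, only the arrays compared, omission of both arrays with little poly-A signal or of any 1 array, a ratio rule and a replicate block. Correlations of same-numbered EAMG and control arrays were 0.148 to 0.342 in EDL (3 of 3 over 0.1), -0.03 to 0.183 in DIA and -0.01 to 0.189 in EOM (2 of 3 each). Those of same-numbered control arrays were 0.050 to 0.390 between DIA and EDL, 0.043 to 0.142 between EOM and EDL and -0.01 to 0.173 between EOM and DIA (2 of 3 each). The main model took no account of the numbers. Figures used python 3.11.15 and matplotlib 3.10.9.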

Additional observations from a re-analysis of the deposited data

How the results depend on the processing

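No called result reversed its direction. The median difference of the EDL and DIA changes, -0.10, was small and turned to 0.05 without EDL control 2 and to 0.09 without EDL EAMG 3. With the replicate number as a block (replicate block) 4 members passed in DIA, 12 in EDL, 3 in EOM, 23 in the mean over muscles, 0 in each difference of changes, and 29, 11 and 20 between control muscles (EOM and EDL, EOM and DIA, DIA and EDL), and every call named in EDL was kept. Without the signal minimum 0, 1 and 0 passed in DIA, EDL and EOM, 11 in the mean and 10 between DIA and EDL controls, over more probe sets, and the medians were -0.43 in DIA, 0.62 for EOM against EDL controls and 0.24 for EOM against DIA controls. With 100 added to each signal 6 passed in DIA and 1 (Col25a1) for the difference of EOM and EDL changes, and the median of EOM against EDL controls was 0.74. That median was 0.73 with the mean of a gene's probe sets. In a fit of only the 6 arrays of a muscle 0 passed in DIA and 0 in EDL, while in EOM Col25a1, Lamb3 and Col24a1 were kept. Without DIA EAMG 2 and EOM EAMG 2, whose poly-A signal was low, 0 passed in DIA and 1 in EOM. By the rule of at least 7 of 9 ratios 2-fold in one direction 2 members passed in DIA (Col1a1, Col15a1), 1 in EDL (Col3a1) and 2 in EOM (Col25a1, Lamb3). No share over all probe sets was computed for this rule, so these counts cannot be set against one. Without 1 array the counts ranged from 0 to 7 in DIA, 1 to 17 in EDL, 0 to 3 in EOM, 17 to 27 in the mean, 0 to 0 for EDL against DIA and for EOM against DIA changes, 0 to 1 for EOM against EDL changes, and 19 to 32, 9 to 14 and 12 to 24 between control muscles in the order above. The medians ranged from -0.44 to -0.27 in DIA, -0.66 to -0.31 in EDL, -0.20 to -0.03 in EOM, -0.41 to -0.31 in the mean, -0.27 to 0.09, 0.17 to 0.35 and 0.12 to 0.46 for EDL against DIA, EOM against DIA and EOM against EDL changes, and 0.60 to 1.03, 0.075 to 0.26 and 0.35 to 0.70 between control muscles. Apart from the smaller number of arrays or the larger number of probe sets, the cause was not tested. In EDL Col18a1, Col25a1, Col6a5 and Spp1 were below the minimum of 400 on every array.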
